A study of Mus musculus with 6 samples.

Results

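Genes of the splicing machinery were followed in mouse dendritic cells (DCs), which take up antigen and present it to T cells, after sorting from lymph nodes. The set holds every gene whose symbol on the array begins with Srsf and a digit (serine- and arginine-rich, or SR, proteins), with Snrp (proteins of the small nuclear ribonucleoproteins), with Hnrnp (heterogeneous nuclear ribonucleoproteins, hnRNPs) or with Sf3a or Sf3b (the SF3 complexes). The array carries 47 such genes, and 27 were measured, which is 57.4%, against 35.6% of the 16593 named genes on the array. They are 27 of the 6331 genes and unnamed probes tested. Mice of the antibiotics group were gavaged with broad-spectrum antibiotics over 10 days. The untreated group's labels read no treatment and name no gavage, so that gavage and antibiotics cannot be told apart. DCs were sorted from peripheral lymph nodes after staining, and biotin-labelled total RNA was read on Illumina mouse bead arrays, 3 per group. Strain, sex and age of the mice are not given in the sources used here, nor whether the 3 arrays of a group come from separate mice or pools. The p-values therefore cover only the variation among these arrays, part or all of which may be technical.

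Pre-mRNA splicing removes introns through the spliceosome, a machine built from small nuclear ribonucleoproteins that recognise the splice sites and the branch point. SR proteins mostly bind exons and promote their inclusion, while hnRNPs coat the transcript and often silence exons. Both families control their own levels and each other's through exons that lead to decay of the message, and immune cells use them to switch isoforms on activation. The question was whether 10 days of antibiotics altered the level of these genes in lymph node DCs. A probe on this array reads part of a transcript and does not measure splicing itself.

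Levels are normalized log2 intensities of 1 probe per gene, and differences are antibiotics minus untreated on that log2 scale, with limma's standard error (SE). Background and an offset of 16 pull differences of dim genes toward 0. Between 6876 and 7674 probes were detected per array, and arrays correlated at 0.963 to 0.984 across the tested genes. Antibiotics replicate 1 stood apart from the other 5 on the first principal component, at -25.3 against 1.36 to 11.5. Values without it are given beside the results it moves. Of the 9 measured DC markers, among them Itgax, H2-Ab1 and Cd74, the summed linear intensity was 45513 to 47345 after antibiotics and 45311 to 47125 without. Flt3, also on that list, was not detected. Markers of some other cells differed between the groups. The ranges that follow are of summed linear intensity. All 5 measured markers of the cDC1 subset were higher (2265 to 2359 against 2003 to 2182), all 5 measured plasmacytoid DC markers were lower (689.9 to 778 against 807 to 986), and 3 of 4 measured plasma cell markers were higher (1250.4 to 1499.6 against 1023 to 1150.5). For macrophages and monocytes, 4 of 5 measured markers were higher (1759 to 1982 against 1163 to 1637), and for stroma and endothelium 1 of 2 (122 to 146 against 78.7 to 115). In mean log2 level these last 2 lists overlapped, at 7.04 to 7.41 against 6.92 to 7.19 and at 5.82 to 6.17 against 5.30 to 5.85. The defining genes Siglech (plasmacytoid DC), Jchain and Sdc1 (plasma cell), C1qc and Mertk (macrophage) and Pdpn and Cdh5 (stroma and endothelium) were not detected. Clec9a and Tlr3 of the cDC1 list were not measured either. T cell, NK cell and neutrophil markers overlapped, and 0 of 3 erythroid markers were measured. Of 4 measured B cell markers 3 were lower and 3 had an unadjusted p under 0.05. Their sums met at the edge (334 to 381 against 378 to 431) and their mean log2 levels did not overlap (5.93 to 6.33 against 6.39 to 6.51), while Cd79a and Ms4a1 were not detected. Their part in the results below was not tested. In a sorted bulk sample, a change in the share of a cell type and a change in RNA per cell cannot be told apart.

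No splicing gene passed the test. Of the 27, 14 stood above and 13 below the untreated level, and the median log2 difference was 2.7e-04, beside 0.017 over all genes tested. The smallest adjusted p among them was 0.473, for Hnrnpdl, in limma with Benjamini-Hochberg adjustment over all 6331, where 0 passed at 0.05 and the share called was therefore 0%. At an unadjusted p under 0.05 there were 3 of 27, or 11.1%, beside 7.74% of all genes tested. These 3 were Hnrnpdl and Srsf6, both higher (2 of 27, beside 3.41% of all genes), and Hnrnpll, lower (1 of 27, beside 4.33%). Over all genes 216 of the 490 at that p were higher (44.1%). With arrays scaled to their median over all probes, 359 genes lay at that p and 22.0% of them were higher. In 4 of 27 members, or 14.8%, the 2 groups of arrays did not overlap, beside 13.7% of all genes. These were the same 3 genes and Sf3b5, with 3 higher (beside 7.12% of all genes) and 1 lower (beside 6.62%). Both shares lie near the background. Without antibiotics replicate 1 the groups did not overlap in 5 of 27 (18.5%), beside 23.8% of all genes with 5 arrays. The count at an unadjusted p under 0.05 was then 2 of 27, Hnrnpdl and Sf3b6 (7.41%, beside 7.22% of all genes). It was 1 of 27 without antibiotics replicate 3, beside 7.76% of all genes. Without untreated replicate 1, 2 or 3 it was also 1, beside 5.64%, 5.39% and 8.67% of all genes.

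**Figure D1:**
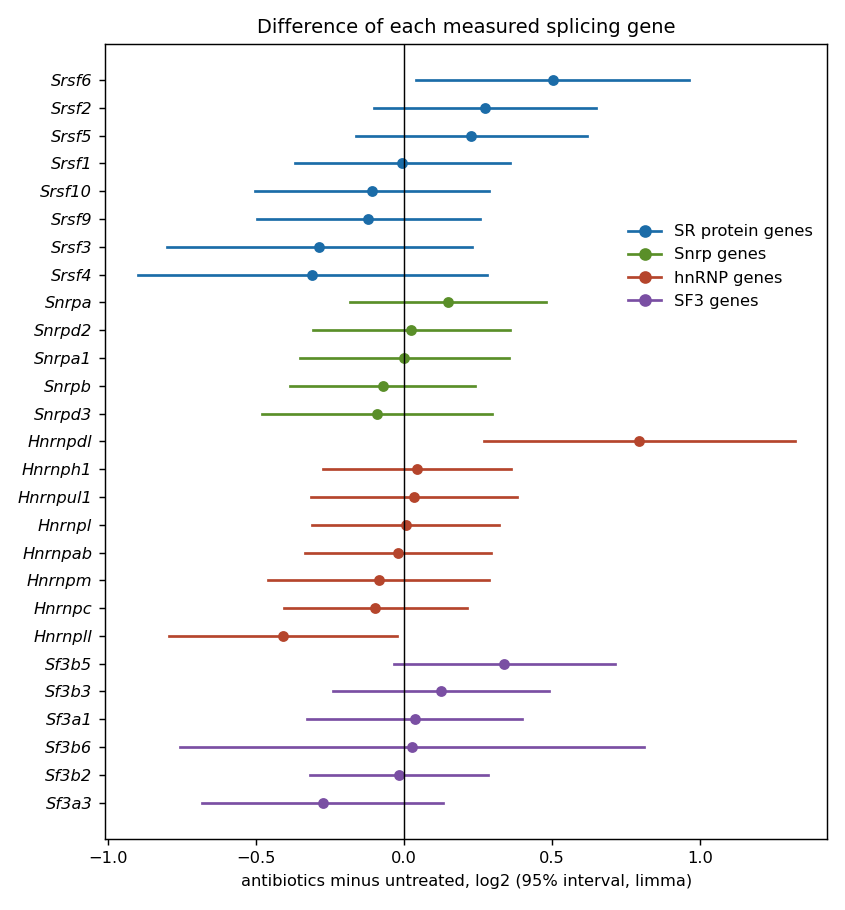
Difference of each of the 27 measured genes between antibiotics and untreated arrays (x axis, log2 scale, point and 95% interval from limma, n = 3 arrays per group), ordered by class. The intervals of 24 genes include 0, and those of Hnrnpdl, Srsf6 and Hnrnpll do not.

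The interval around each difference shows what the 6 arrays could resolve. Its half-width had a median of 0.37 on the log2 scale, from 0.30 for the tightest gene to 0.78 for Sf3b6. Within a group the arrays had a median SD of 0.18 for the splicing genes and 0.22 for all genes. Of the 27 differences, 24 were smaller than 0.35 in size.

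SR proteins carry RNA recognition motifs and a tail of arginine-serine repeats that recruits the spliceosome. Of 9 on the array 8 were measured, 3 higher and 5 lower, at a median difference of -0.056. The class mean was 8.02 ± 0.040 after antibiotics and 7.999 ± 0.085 without (SD, n = 3, log2). Srsf6, one of the larger SR proteins with a pair of recognition motifs, read 8.02, 7.23 and 7.63 on antibiotics replicates 1 to 3 and 7.20, 7.08 and 7.09 on untreated replicates 1 to 3. The antibiotics arrays all lay above the untreated ones, antibiotics replicate 2 by only a small step and replicate 1 furthest. The difference was 0.50 (SE 0.20), or 1.42-fold, with an unadjusted p of 0.0364 and a limma adjusted p of 0.610. It was 0.31 (SE 0.17) without antibiotics replicate 1, with an unadjusted p of 0.107 in limma. Leaving out antibiotics replicate 3 or any one untreated array also put that p above 0.05, between 0.0559 and 0.0890, while the difference stayed between 0.48 and 0.54. Srsf6 lies on chromosome 2, and the 250 bases before its RefSeq start (GRCm38.p6, plus strand, chr2:162931258-162931507) are shown because it is one of the 2 members that stood higher at an unadjusted p under 0.05. Capitals mark the GC box GGGCGG on either strand, the only one of 5 motifs searched that these bases hold.

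Srsf6: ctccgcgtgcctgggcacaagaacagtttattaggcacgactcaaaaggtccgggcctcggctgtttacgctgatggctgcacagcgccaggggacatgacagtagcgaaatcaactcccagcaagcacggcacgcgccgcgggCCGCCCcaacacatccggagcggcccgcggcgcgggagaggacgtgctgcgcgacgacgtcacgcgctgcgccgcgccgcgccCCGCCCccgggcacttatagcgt

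Srsf2 and Srsf5 varied across the arrays much as Srsf6 did, a likeness picked out after the values were seen. Srsf2, also known as SC35, read 10.46, 10.13 and 10.004 after antibiotics and 9.85, 9.86 and 10.06 without. Srsf5, a close relative of Srsf6, read 8.56, 7.99 and 8.23 after antibiotics and 8.08, 8.002 and 8.02 without. With these probes, the brightest of each gene, antibiotics replicate 1 was the highest of the 6 arrays and the groups overlapped. The differences were 0.27 (SE 0.16) for Srsf2 and 0.23 (SE 0.17) for Srsf5, each with a limma adjusted p of 0.745 or more. Without antibiotics replicate 1 they were 0.14 (SE 0.15) and 0.077 (SE 0.14). Across the 6 arrays Srsf6 correlated at a Pearson's r of 0.970 with Srsf5 and 0.785 with Srsf2, a description over arrays that share their normalization and include the array that stands apart. Srsf4, the third of the close relatives, ran the other way, with r of -0.923 to Srsf5. It read 8.08, 9.04 and 8.93 after antibiotics and 8.74, 9.05 and 9.19 without, so that antibiotics replicate 1 alone was far below the rest. Over the 28 pairs of SR genes, 11 had an r above 0. All these r use the brightest probe of each gene. The other detected Srsf2 probe read 8.91, 9.35 and 9.31 after antibiotics and 9.06, 8.93 and 9.11 without, with antibiotics replicate 1 the lowest. The other Srsf5 probe read 5.70, 6.15 and 5.74 after antibiotics and 5.67, 6.31 and 6.07 without. The likeness of both genes to Srsf6 therefore rests on 1 probe per gene.

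The remaining SR genes overlapped between the groups. Srsf3, the smallest SR protein and an adaptor in mRNA export, read 5.09, 4.94 and 5.60 after antibiotics and 5.74, 5.13 and 5.61 without. It was detected on 1 of 3 antibiotics arrays and on all 3 untreated ones, and its difference was -0.29 (SE 0.23). Srsf4 stood at -0.31 (SE 0.26), and at -0.0086 (SE 0.17) without antibiotics replicate 1. Srsf9 read 9.57, 10.07 and 9.73 after antibiotics and 9.98, 9.84 and 9.90 without, a difference of -0.12 (SE 0.17) that was -0.0093 (SE 0.16) without antibiotics replicate 1. Srsf10, which represses splicing when dephosphorylated, stood at -0.11 (SE 0.17). Srsf1, the founding SR protein, differed by -0.0059 (SE 0.16). These 5 genes had limma adjusted p between 0.802 and 0.997. Without antibiotics replicate 1 the SR class had 4 genes higher and 4 lower.

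**Figure D2:**
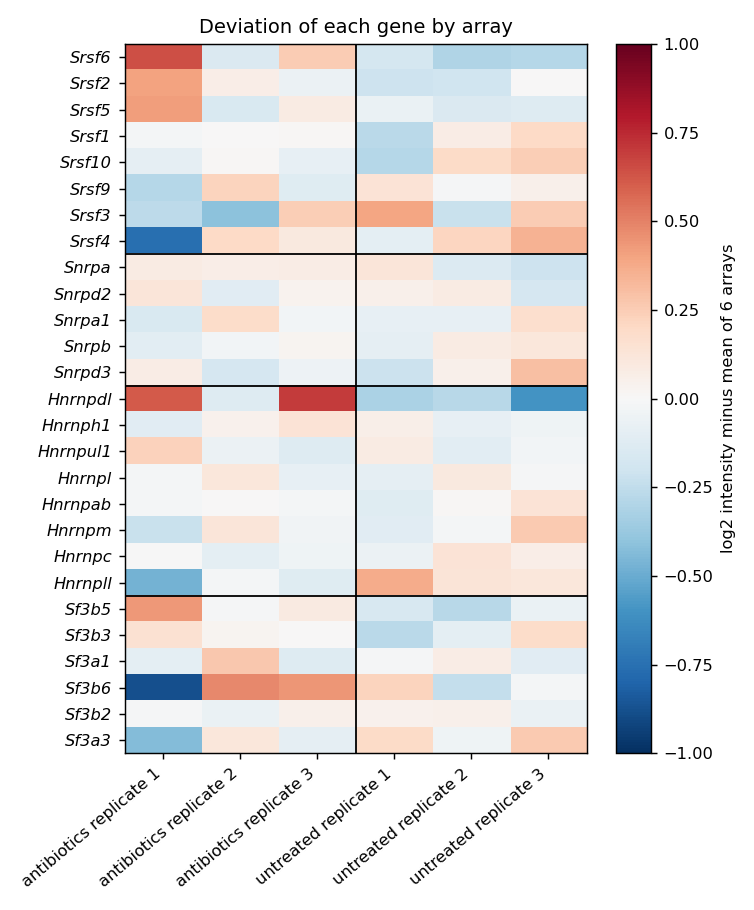
Normalized log2 intensity of each of the 27 genes on each of the 6 arrays, as the deviation from that gene's mean over the arrays (red above, blue below). Antibiotics replicate 1 holds the highest or the lowest value of the 6 in 15 of 27 genes.

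The array that stands apart did so in the splicing genes about as often as elsewhere. Antibiotics replicate 1 was the highest or lowest of the 6 arrays in 15 of 27 members (55.6%), beside 51.3% of all genes tested. It was highest in 6, among them Srsf2, Srsf5, Srsf6 and Sf3b5, and lowest in 9, among them Srsf4, Hnrnpll, Sf3a3 and Sf3b6. Untreated replicate 3 was at one end in 13 of 27 (48.1%, beside 32.6% of all genes). Untreated replicate 2 was so in 3.

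The Snrp genes encode proteins of the small nuclear ribonucleoproteins, among them the Sm proteins that form a ring on the small nuclear RNAs. Of 11 on the array 5 were measured, 3 higher and 2 lower (2 and 3 without antibiotics replicate 1), and in none were the groups apart. The class mean was 7.32 ± 0.012 after antibiotics and 7.32 ± 0.042 without (SD, n = 3, log2), and the median difference was 2.7e-04. Snrpb, an Sm protein, read 7.97, 8.05 and 8.10 after antibiotics and 7.99, 8.16 and 8.19 without. Snrpd3, another Sm protein, read 7.40, 7.16 and 7.27 after antibiotics and 7.10, 7.37 and 7.62 without. Their differences were -0.073 (SE 0.14) and -0.092 (SE 0.17), smaller than their SE. Snrpd2, the third Sm protein measured, read 8.97, 8.74 and 8.89 after antibiotics and 8.91, 8.94 and 8.68 without, a difference of 0.025 (SE 0.15). Snrpa, the A protein of the U1 particle that recognises the 5′ splice site, read 6.83, 6.82 and 6.83 after antibiotics and 6.88, 6.62 and 6.54 without. The highest and the lowest values were both untreated, and the difference was 0.15 (SE 0.15). Snrpa1, the U2 protein A′, read 5.45, 5.79 and 5.58 after antibiotics and 5.52, 5.52 and 5.77 without, a difference of 2.7e-04 (SE 0.15). The 95% intervals of the 5 genes together ran from -0.48 to 0.48 on the log2 scale, and their limma adjusted p from 0.840 to 0.9998.

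SF3A and SF3B are the parts of the U2 particle that grip the branch point. Of 9 of their genes on the array 6 were measured, 4 higher and 2 lower, at a median difference of 0.031. The class mean was 8.01 ± 0.14 after antibiotics and 7.97 ± 0.063 without (SD, n = 3, log2). Sf3b5, a small SF3B subunit, read 8.62, 8.17 and 8.27 after antibiotics and 8.02, 7.90 and 8.12 without. All 3 antibiotics arrays lay above the untreated ones, replicate 2 by the least. The difference was 0.34 (SE 0.16), with an unadjusted p of 0.0687 and a limma adjusted p of 0.665. Without antibiotics replicate 1 it was 0.21 (SE 0.14), with an unadjusted limma p of 0.187. Sf3a3, an SF3A subunit, read 8.53, 9.07 and 8.87 after antibiotics and 9.16, 8.92 and 9.22 without. The groups overlapped, with antibiotics replicate 1 the lowest, and the difference was -0.28 (SE 0.18), or -0.13 (SE 0.16) without that array. Sf3b6, the subunit that sits at the branch point adenosine, read 4.59 on antibiotics replicate 1, where it was not detected, against 5.95 and 5.92 on antibiotics replicates 2 and 3 and 5.69, 5.23 and 5.45 without. That 1 array set its value, since the difference was 0.027 (SE 0.34) with it and 0.47 (SE 0.17) without it, with an unadjusted limma p of 0.0287 and no adjusted p under 0.05. Sf3b3, one of the larger SF3B subunits, read 7.16, 7.03 and 7.01 after antibiotics and 6.73, 6.90 and 7.19 without, a difference of 0.12 (SE 0.16). Sf3a1 read 7.94, 8.31 and 7.91 after antibiotics and 8.02, 8.11 and 7.92 without, a difference of 0.036 (SE 0.16). Sf3b2 read 10.28, 10.23 and 10.35 after antibiotics and 10.34, 10.34 and 10.23 without, a difference of -0.017 (SE 0.13). The groups overlapped in all 3 genes.

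The hnRNP genes held both the largest positive and the largest negative difference among the 27. Of 18 on the array 8 were measured, 4 higher and 4 lower, at a median difference of -0.0073. The class mean was 8.58 ± 0.030 after antibiotics and 8.54 ± 0.0059 without (SD, n = 3, log2). Hnrnpdl, a relative of the AU-rich element binding protein Hnrnpd, read 8.72, 7.98 and 8.81 after antibiotics and 7.79, 7.83 and 7.51 without. Antibiotics replicates 1 and 3 lay well above every untreated array, and replicate 2 just above. The difference was 0.79 (SE 0.23), or 1.73-fold, with an unadjusted p of 0.00787 and a limma adjusted p of 0.473. It lay between 0.45 and 1.06 over the 16 alternatives, each with an unadjusted p under 0.05, from 3.4e-04 to 0.0320. A second Hnrnpdl probe, which carries the same transcript accession in the deposited table, read 7.78, 7.82 and 7.81 after antibiotics and 7.87, 7.75 and 7.47 without. The groups overlapped there, with a difference of 0.11 (SE 0.15). The gap between both probes was 0.94, 0.16 and 1.003 on antibiotics replicates 1 to 3 and -0.075, 0.076 and 0.047 on untreated replicates 1 to 3. The gap was wider on antibiotics replicates 1 and 3 than on the other 4 arrays. Levels of different probes cannot be set against each other. The mean of both probes gave 0.45 (SE 0.17). The 250 bases before a RefSeq start of Hnrnpdl (GRCm38.p6, minus strand, chr5:100039223-100039472) are shown as the other member that stood higher, with the GC box in capitals on either strand. These bases lie inside the annotated span of the gene (chr5:100033577-100039936), and so not upstream of its outermost start.

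Hnrnpdl: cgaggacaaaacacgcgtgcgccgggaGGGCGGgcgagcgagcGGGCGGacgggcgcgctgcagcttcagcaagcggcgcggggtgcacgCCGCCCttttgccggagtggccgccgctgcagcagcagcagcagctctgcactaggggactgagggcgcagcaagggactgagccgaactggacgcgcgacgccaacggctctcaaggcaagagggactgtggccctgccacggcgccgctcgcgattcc

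Hnrnpll, which in mouse T cells silences the variable exons of Ptprc (CD45) and in plasma cells acts on antibody messages, read 6.47, 6.93 and 6.83 after antibiotics and 7.31, 7.08 and 7.06 without. The antibiotics arrays all lay below the untreated ones. The difference was -0.41 (SE 0.17), or 1.33-fold lower, with an unadjusted p of 0.0396 and a limma adjusted p of 0.629. Without antibiotics replicate 1 it was -0.27 (SE 0.15), with an unadjusted limma p of 0.110. Leaving out antibiotics replicate 3 or any one untreated array also put that p above 0.05, between 0.0509 and 0.129. A second, dimmer probe of the same transcript accession, detected on 3 of 6 arrays, stood at 0.086 (SE 0.21), and the mean of both gave -0.16 (SE 0.15). The T cell markers Cd3e, Cd3d and Cd3g were not detected, and the 2 measured T cell markers summed to 64.0 to 82.7 after antibiotics and 62.5 to 82.7 without. Of 4 measured plasma cell markers 3 were higher after antibiotics, as given above, while Jchain, Sdc1 and Prdm1 were not measured. Their part in the Hnrnpll value was not tested.

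**Figure D3:**
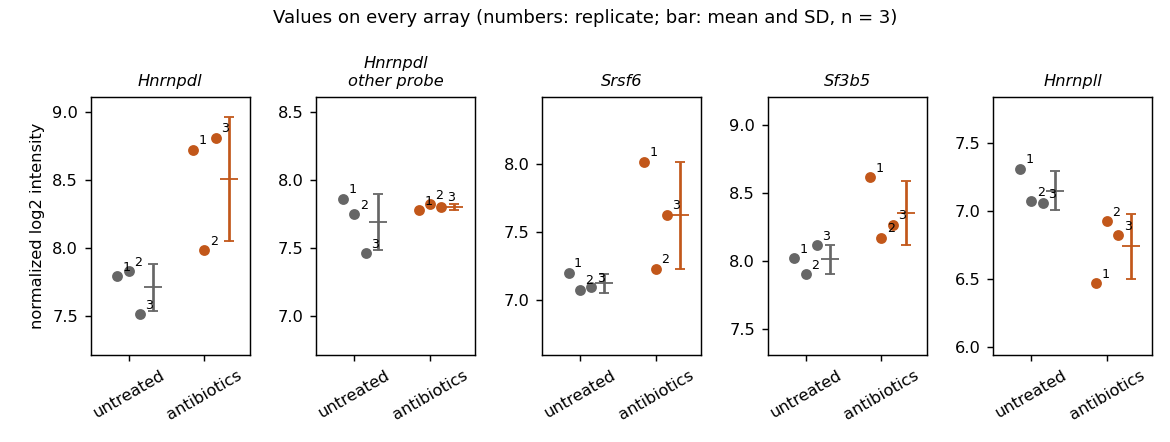
Normalized log2 intensity on every array for the 4 genes whose groups did not overlap and for the second Hnrnpdl probe, each panel spanning the same range (points, with replicate numbers; bars, mean and SD, n = 3). The second Hnrnpdl probe lies between 7.78 and 7.82 after antibiotics, inside the untreated range, while the first reaches 8.81.

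The other 6 hnRNP genes overlapped between the groups and differed by at most 0.097 in size. Hnrnpc, which binds uridine tracts, read 11.36, 11.26 and 11.31 after antibiotics and 11.30, 11.50 and 11.42 without, a difference of -0.097 (SE 0.14). Hnrnpm read 11.71, 12.06 and 11.90 after antibiotics and 11.82, 11.91 and 12.19 without, a difference of -0.086 (SE 0.16). In both the untreated arrays spread past the antibiotics arrays at the upper end. Hnrnph1, which binds runs of guanines, read 5.59, 5.74 and 5.83 after antibiotics and 5.76, 5.62 and 5.65 without, a difference of 0.044 (SE 0.14). Hnrnpul1 read 5.63, 5.34 and 5.27 after antibiotics and 5.48, 5.30 and 5.37 without, a difference of 0.033 (SE 0.15). Hnrnpl, the paralog of Hnrnpll that binds CA repeats, stood at 0.0060 (SE 0.14), and Hnrnpab at -0.021 (SE 0.14). The 95% interval of Hnrnpl ran from -0.31 to 0.32 and that of Hnrnpll from -0.79 to -0.024, and the difference between these paralogs was not tested.

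Several probes of 1 gene give a check on each value. Of the 27 genes, 11 had more than 1 detected probe, and in 6 of the 11 all probes lay on the same side of 0. These 6 include Snrpa1, whose other probe had its direction fixed by the filter and so gives no check. Both detected Srsf2 probes were higher, at 0.27 and 0.16 (SE 0.16 each), and all 3 Hnrnpm probes were lower, down to -0.27. The Srsf2 probes shared a direction but not an order of arrays. Antibiotics replicate 1 was the highest array with the brighter probe and the lowest with the other. Srsf5 stood at 0.23 with the brighter probe and -0.15 (SE 0.21) with the other. Srsf1 stood at -0.0059 and -0.31 (SE 0.24). The other Snrpa1 probe was detected on all 3 antibiotics and 0 untreated arrays, at 5.21, 5.19 and 5.18 against 4.99, 4.92 and 4.91. It passed the filter only through the antibiotics arrays, so its direction was fixed by the filter and no test is given. Srsf6, Sf3b5 and the other single-probe genes had no such check.

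**Figure D4:**
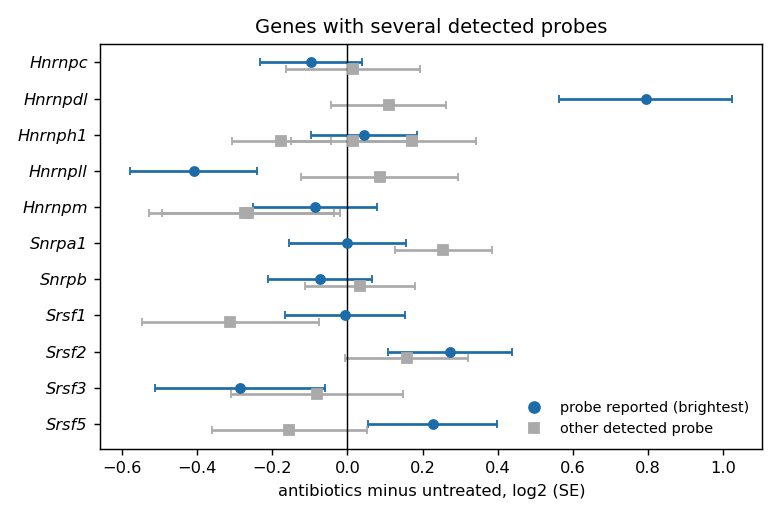
Difference between antibiotics and untreated arrays for every detected probe of the 11 genes with more than 1 (x axis, log2 scale, with limma's SE, n = 3 arrays per group). The probes of Hnrnpdl stand at 0.79 and 0.11 and those of Hnrnpll at -0.41 and 0.086. The other Snrpa1 probe passed the filter only through the antibiotics arrays, so its direction was fixed by the filter.

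The array left 20 of the 47 genes without a level. The filter, detection at p under 0.05 on 3 or more of the 6 arrays, kept 8 of 9 SR genes, 6 of 9 SF3 genes, 5 of 11 Snrp genes and 8 of 18 hnRNP genes. Just inside it were Srsf3, detected on 4 arrays, and Srsf10 and Sf3b6 on 5, and just outside Hnrnpa2b1 and Snrpc, each on 1 untreated array. The other 18 unmeasured genes had no probe detected on any array. They were Hnrnpa1, Hnrnpa3, Hnrnpd, Hnrnpf, Hnrnph2, Hnrnph3, Hnrnpk, Hnrnpr, Hnrnpu, Sf3a2, Sf3b1, Sf3b4, Snrpb2, Snrpd1, Snrpe, Snrpg, Snrpn and Srsf12. The 33 probes of all 20 had intensities before correction of 75.4 to 103.9, around the array medians of 84.7 to 89.2. Hnrnpk, Hnrnpu and Sf3b1 are known as genes that nearly every cell uses, and all 3 Hnrnpk probes were at background, and a missing signal does not show that a gene was silent.

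The sequences before the RefSeq starts of the measured genes are rich in CG. RefSeq promoter windows (GRCm38.p6) matched 24 of the 27 by symbol, leaving out Hnrnpll, Sf3b5 and Snrpb. In the 250 bases before each start, the members' windows held a median of 19 CG dinucleotides and 60.4% GC, beside 6 and 52.4% over all windows. All genes here are the 27025 with a RefSeq window, measured on the array or not. The members had passed the detection filter, and no comparison with other measured genes was made. Motifs were searched on both strands, each counted on its own where it overlapped another, and a gene counted once if any of its windows held the motif. The GC box GGGCGG stood in 18 of 24 members (75%, beside 35.4% of all genes) and the ETS core CGGAAG in 12 (50%, beside 15.3%). CCAAT stood in 11 (45.8%, beside 37.5%) and TATAAA in 5 (20.8%, beside 14.3%). The interferon response core, GAAA and GAAA with NN between them, stood in 0 of 24, beside 3.46% of all genes. The Hnrnpdl window printed above holds 3 GC boxes and 33 CG dinucleotides, and the Srsf6 window 2 and 35. These matches describe letters in a window, not sites in use.

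Other genes of the splicing machinery were split between higher and lower too. In 8 lists of other splicing genes, 105 of 156 genes with a probe were measured, 51 higher and 54 lower, at a median difference of -0.012. At an unadjusted p under 0.05 there were 4 of 105 (3.81%, beside 7.74% of all genes), 3 higher and 1 lower, and 0 passed after adjustment. Without antibiotics replicate 1 there were again 4 of 105, 1 higher and 3 lower. The groups did not overlap in 15 of 105 (14.3%, beside 13.7%), and without that array in 25 (23.8%, beside 23.8%).

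Among factors that recognise the U2 site, 0 of 8 had an unadjusted p under 0.05, with Cherp at 0.30 (SE 0.23) and Htatsf1 at -0.16 (SE 0.15). Leaving out antibiotics replicate 1, the highest difference of these 8 genes was 0.15. Of 25 Prp proteins and other particle components, 10 were higher and 15 lower, at a median difference of -0.064 (0.038 without antibiotics replicate 1). At an unadjusted p under 0.05 there was 1, higher, while without antibiotics replicate 1 there were 2, both lower. The groups did not overlap in 6 of 25 (24%, beside 13.7% of all genes), 3 higher and 3 lower. Without that array they did not overlap in 9 (36%, beside 23.8%). Txnl4a, a component of the U5 particle, read 8.69, 8.72 and 8.34 after antibiotics and 8.24, 8.22 and 8.15 without, and Prpf38a stood at 0.38 (SE 0.18). The Txnl4a arrays did not overlap, at a difference of 0.38 (SE 0.15) and a limma adjusted p of 0.610. Of 10 helicases, 1 had an unadjusted p under 0.05, and 0 without antibiotics replicate 1. Dhx35 read 7.16, 6.73 and 6.67 after antibiotics and 6.55, 6.33 and 6.25 without, apart without overlap (0.48, SE 0.18), and Ddx3x stood at 0.29 (SE 0.16).

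Of 10 Lsm genes, most with proteins that form rings like those of the Sm proteins, 7 were lower. The median difference of the 10 was -0.15 (8 lower at -0.20 without antibiotics replicate 1). Lsm8, the subunit that directs the ring to U6 RNA in the nucleus, read 8.20, 8.05 and 8.08 after antibiotics and 8.34, 8.59 and 8.66 without. The groups did not overlap, at -0.42 (SE 0.15) and a limma adjusted p of 0.565. Lsm10, part of the U7 particle that processes histone messages, stood at -0.30 (SE 0.15), also without overlap. Of 10 Lsm genes 3 did not overlap (30%, beside 13.7% of all genes), 2 lower and 1 higher. Of 8 genes of the SMN complex, which assembles the Sm ring, and its partners, 4 were higher (5 without antibiotics replicate 1). Among the partners, Clns1a stood at 0.19 (SE 0.14) and Wdr77 at -0.56 (SE 0.40). Wdr77 read 4.66 on antibiotics replicate 1, against 6.44 and 5.92 on antibiotics replicates 2 and 3 and 5.89, 6.25 and 6.55 without. Leaving out antibiotics replicate 1, the lowest difference of these 8 genes was -0.17. Of the kinases that phosphorylate SR proteins and their importer, 4 were measured, 3 higher (all 4 without antibiotics replicate 1), with Clk4 at 0.15 (SE 0.16) and Srpk1 at 0.16 (SE 0.20). Of 11 genes of the exon junction complex and its partners in export and decay, 8 were lower (9 without antibiotics replicate 1), with Thoc3 at -0.34 (SE 0.20) and Rbm8a at -0.43 (SE 0.27). None of the 23 genes in these last 3 lists had an unadjusted p under 0.05.

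Of the other splicing regulators 19 of 29 were higher, at a median difference of 0.070, and 16 of 29 without antibiotics replicate 1, where the median was 0.031. Luc7l, a protein of the U1 particle, had the smallest p of all the wider genes. It read 8.21, 8.57 and 8.56 after antibiotics and 8.07, 8.01 and 7.46 without, apart without overlap. The difference was 0.60 (SE 0.20), or 1.52-fold, with an unadjusted p of 0.0159 and a limma adjusted p of 0.538. Elavl1, the RNA-stabilising protein HuR, stood at 0.27 (SE 0.13), also without overlap.

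**Figure D5:**
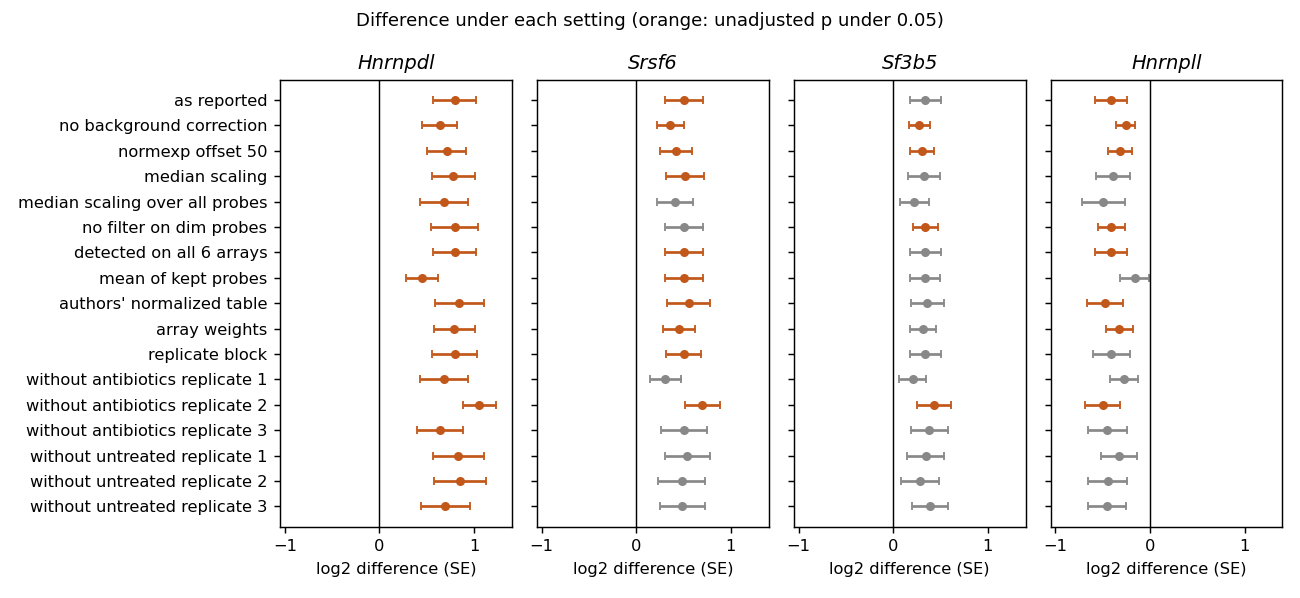
Difference of the 4 genes whose groups did not overlap, as reported and under each of 16 other settings (x axis, log2 scale, with limma's SE; orange where the unadjusted p is under 0.05). Every value keeps its direction, and all 16 stay orange for Hnrnpdl alone, against 9 for Srsf6, 7 for Hnrnpll and 4 for Sf3b5.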

How the data were processed

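Splicing genes were analysed on 6 arrays, 3 per group, grouped by their labels. The authors deposited linear probe intensity, neither background-corrected nor normalized, and, per the file headers, detection p-values. A further deposited intensity table is normalized by steps not given in the sources used here, and the series' values equal it in all 154182 cells. With limma 3.58.1 in R 4.3.3, neqc (normexp from the detection p-values, offset 16, quantile normalization, log2) was run on all 25697 probes. Probes detected at p under 0.05 on 3 or more arrays were kept (7507), and the brightest stood for a gene. Symbols came from the platform annotation, 1 for each of 23978 probes. The comparison used lmFit and eBayes, which share the spread across genes, and Benjamini-Hochberg over 6331. Other probes were fitted among all 7507. The code was tested on simulated data. An exact permutation test of 3 against 3 arrays cannot give a p under 0.1.

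The members, the 8 wider lists and the tests were chosen with earlier results of these data known. Named with values per array were, in each class, up to 3 genes per direction by smallest unadjusted p, and from each wider list up to 2. The other members are named because classes held 12 or fewer (Sf3b6 with values per array, chosen after they were seen), and per-array values of wider genes are given where an unadjusted p lay under 0.05. Alternatives covered background correction, scaling, filter, probe choice, the normalized table (floored at 16), array weights, a replicate block and leaving out each array.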

Additional observations from a re-analysis of the deposited data

How the results depend on the processing

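Under all 16 alternatives 0 genes reached an adjusted p of 0.05 in limma, with a smallest adjusted p between 0.0940 (array weights) and 0.677, and 490 stood at an unadjusted p under 0.05 with the settings reported. Leaving out 1 array at a time gave 1 to 4 of 27 members at an unadjusted p under 0.05, beside 5.39% to 8.67% of all genes. The groups did not overlap in 5 to 11 members, beside 21.2% to 25.8% of all genes, where groups of 2 overlap less. The 11 of 27 came without untreated replicate 1, a larger share than the 23.0% of all genes there, and this was not tested. With each array left out in turn, median differences ran from -0.038 to 0.024 for all members and -0.026 to 0.023 for the wider lists. They ran from -0.11 to 0.041 for SR genes and -0.042 to 0.038 for Snrp genes. For hnRNP genes they ran from -0.062 to 0.025 and for SF3 genes from -0.040 to 0.085. Each range included 0. Scaling by the median over all probes, a setting chosen after seeing the data, left 1 member at an unadjusted p under 0.05 and moved the medians to -0.087 for all members and for Snrp genes, -0.12 for hnRNP genes and -0.084 for the wider lists. That setting moved the median of all genes to -0.054 and left 5.67% of all genes at an unadjusted p under 0.05. Keeping only probes detected on all 6 arrays left 6 SR genes with a median of 0.11, by dropping the dim Srsf3 and Srsf10. A replicate block gave 2 members at an unadjusted p under 0.05, Hnrnpdl and Srsf6, and 417 over all genes. Same-numbered arrays did not deviate together (correlations of -0.046, -0.060 and -0.15). The labels do not say whether the numbers pair arrays, and with 3 arrays per group these correlations cannot decide it. Of the 27 members, none with an unadjusted p under 0.05 in an alternative lay there on the other side of 0 from its reported value. The number of arrays and the signal over background limit every value.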
